A study of Mus musculus with 18 samples.

Results

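The effect of dietary fat on the liver under calorie restriction was read from 6 of the 18 arrays of the series: the 3 arrays of restricted mice on the high-fat diet (HF+CR) and the 3 arrays of restricted mice on the low-fat diet (LF+CR). All animals were males of the inbred strain C57BL/6J at 62 weeks of age, and liver RNA of 3 mice per group was hybridised to Affymetrix Mouse Genome 430 2.0 arrays. LF+CR mice ate a diet with 10% fat and HF+CR mice a diet with 60% fat, in both cases with 30% fewer calories than the unrestricted group on the same diet consumed, from the age of 5 weeks and in individual cages. The other 12 arrays came from mice on the same diets fed without limit (LF and HF) and from unrestricted voluntary runners with a wheel in the cage (LF+Ex, HF+Ex), again with 3 mice per group, and they are used here only to set the difference between the diets under restriction beside the difference without it. Each ration was scaled to the intake of the unrestricted group on that diet, and a diet richer in fat is poorer in carbohydrate. Fat content, carbohydrate content and any difference in absolute intake therefore cannot be told apart. Neither the hour of sampling nor the time since the last meal was available from the labels.

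As background, the mouse liver is a strongly sex-dimorphic organ. The pulsatile growth hormone secretion of males, acting through the receptor Ghr and the transcription factor Stat5b, maintains male-biased genes such as Hsd3b5, Slco1a1, Elovl3 and the major urinary proteins, and represses female-biased genes such as Cyp2b9 and Cyp2b13. The liver also makes fatty acids from carbohydrate: glycolysis and the citrate carrier supply acetyl-CoA through Acly, Acaca and Fasn build palmitate, Elovl6 and Scd1 lengthen and desaturate it, and Me1 and the pentose phosphate enzymes supply NADPH. These genes respond to insulin and glucose through Srebf1 and Mlxipl and are lowered by dietary polyunsaturated fat.

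Values were fluorescence intensities per probe set between 31.08 and 21654, and a gene counted as dim on an array where it lay under that array's 40th percentile, an intensity of 88.22 to 97.574. Hepatocyte markers were bright in both groups, for example a mean intensity of 21472 in LF+CR and 19105 in HF+CR for Alb and 3356 and 3401 for Hnf4a. LF+CR 2 stood apart from its group: its score on principal component 1 (27% of the variance) was 23.6, against 4.02 for LF+CR 1 and 0.335 for LF+CR 3, while the HF+CR arrays scored between -14.4 and -8.69. Its correlation with the other LF+CR arrays was 0.975 and 0.978, and the pairs of HF+CR arrays correlated at 0.986 to 0.993. LF+CR 1 carried pancreatic transcripts, with an intensity of 386 for colipase (Clps) against 52.6 to 61.7 on the other 5 arrays, and the balance of the clock genes Arntl and Dbp (log2 Arntl minus log2 Dbp) was -2.57 on LF+CR 2 and -2.13 on HF+CR 3, and between -4.32 and -3.50 on the others. Results that rest on one of these arrays are marked where they are given. In whole tissue, fewer cells of a type and less RNA per cell cannot be told apart.

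Between the HF+CR and LF+CR livers, 1268 of 14201 genes differed (8.93%; limma, Benjamini-Hochberg adjusted p under 0.05). Of these, 798 were higher in HF+CR (5.62% of the genes tested) and 470 were lower (3.31%). In 1256 of the 1268 the 3 and 3 intensities did not overlap. Over all genes tested this held for 16.8% in the higher and 10.2% in the lower direction. A small p favours such genes, so the lack of overlap is no separate support for the calls. Of the 1268, 116 differed by at least 1 on the log2 scale, 72 of them higher and 44 lower. Over all genes the median log2 fold change was 0.03, and centring each array on its median turned the split from 62.9% to 53.2% higher. The count was 440 when the spread was estimated from these 6 arrays only and 639 without the 4 arrays of the series that carried pancreatic transcripts. It was 802 without LF+CR 2, 842 without HF+CR 2 and 791 without HF+CR 3. Of 134 named genes that differed, 82 passed without each of the 6 arrays in turn, 61 were not called when only these arrays were fitted, and 48 were not called without the arrays with pancreatic transcripts.

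Genes typical of the male liver were higher on the high-fat diet. Of 22 male-biased genes tested, 17 rose in HF+CR and none fell, against 5.62% and 3.31% of all genes. Their median log2 fold change was 1.43 against 0.03 over all genes. In 18 of the 22 every HF+CR value lay above every LF+CR value, which held for 16.8% of all genes. Hsd3b5, a steroid dehydrogenase made almost only in male liver, had intensities of 78.3, 69.8 and 70.6 in LF+CR and of 3053, 2582 and 4177 in HF+CR. All 3 LF+CR livers were below background and all 3 HF+CR livers were bright (log2 fold change 5.18, SE 0.55, adjusted p = 3.70e-05). Measured against the dim thresholds of the LF+CR arrays, the gene was at least 34.6-fold higher in HF+CR. The fitted log2 fold change of a gene dim in one group depends on the offset of 16 added before the log and is not a bound. Slco1a1, an organic anion uptake transporter, read 116, 82.4 and 105 in LF+CR and 2413, 2512 and 2425 in HF+CR (log2 fold change 4.41, SE 0.37, adjusted p = 8.27e-06), and its second bright probe set differed by 3.78. Cyp7b1, the oxysterol 7-alpha-hydroxylase, was at 1005, 747 and 953 in LF+CR and at 5297, 4677 and 5599 in HF+CR. The groups were far apart and tight for this gene (log2 fold change 2.51, SE 0.18, adjusted p = 1.62e-06).

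Elovl3, which lengthens saturated very-long-chain fatty acids, read 299, 72.3 and 194 in LF+CR and 2176, 2405 and 4086 in HF+CR (log2 fold change 3.95, SE 0.47). Mup10, a major urinary protein that carries pheromones, rose from 150, 54.7 and 155 to 1503, 1294 and 1556 (log2 fold change 3.54, SE 0.33). In both genes LF+CR 2 was the lowest array of its group, and all LF+CR values lay under all HF+CR values. Cyp4a12a, an androgen-dependent fatty acid hydroxylase, was at 197, 405 and 184 in LF+CR and at 1073, 1248 and 1938 in HF+CR (log2 fold change 2.41, SE 0.53); the call was lost without the arrays with pancreatic transcripts (adjusted p of 0.0739 there, the highest over the alternatives). Genes of the terminal complement pathway, which are male-biased in mice, rose together: the membrane attack components C8a, C6, C8b and C9 by 2.23, 1.80, 1.43 and 0.84 on the log2 scale. Complement genes as such did not: in a separate list of 13, 1 rose, 1 fell and 11 did not pass, against 5.62% and 3.31% of all genes. Mbl1 rose by 0.66, and Mbl2 had a log2 fold change of -0.35. Egfr, the epidermal growth factor receptor, had 739, 522 and 1772 in LF+CR and 3117, 2730 and 2182 in HF+CR (log2 fold change 1.57), with a wide spread in LF+CR; its highest adjusted p over the alternatives was 0.0826. The other 5 male-biased genes did not pass, among them Bcl6, a repressor of female-biased genes (log2 fold change 0.98, adjusted p = 0.38), and Mup3 (0.89, adjusted p = 0.056).

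**Figure D1:**
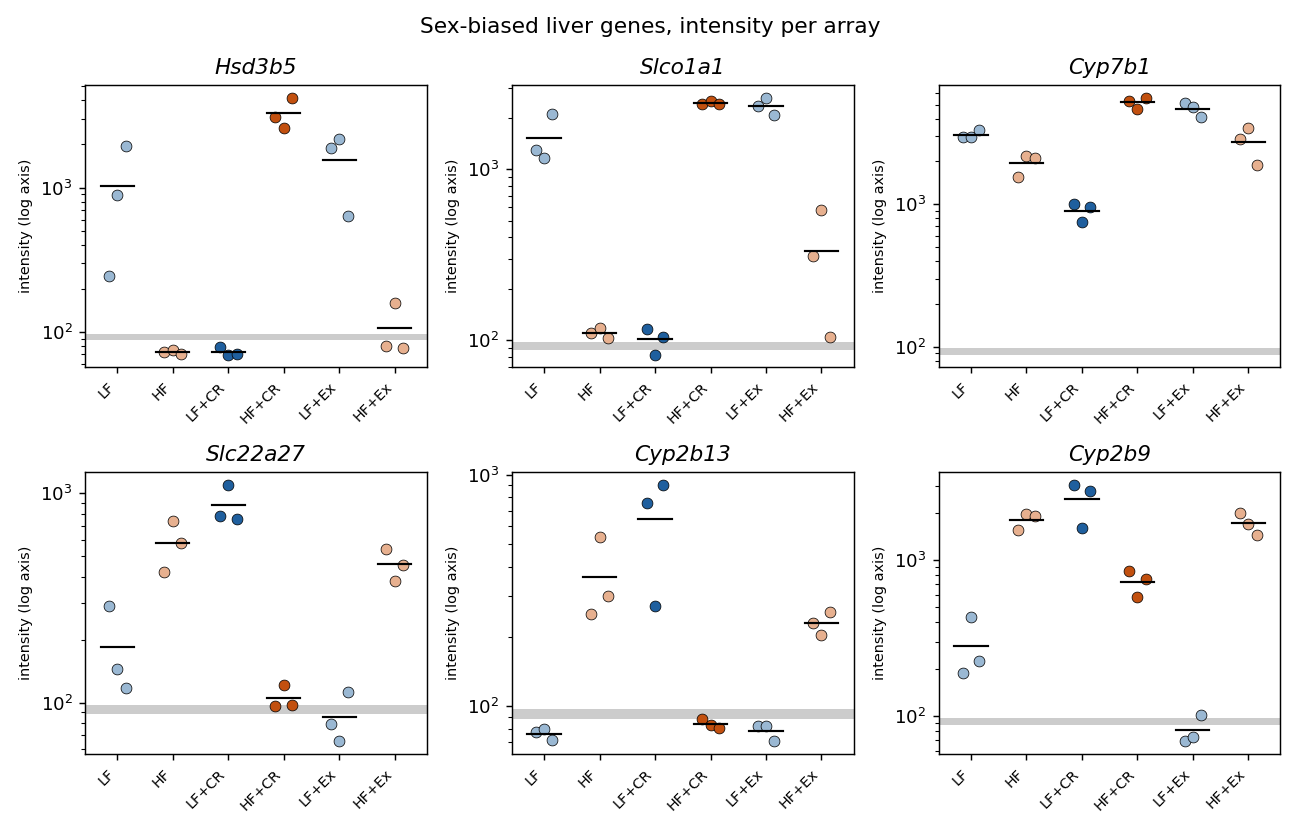
Intensity (log axis) of 3 male-biased genes (top) and 3 female-biased genes (bottom) on every array of the 6 groups; points are single mice, black bars are group means and the grey band is the range of the dim thresholds (88.22 to 97.574). HF+CR lies with LF and LF+Ex for Hsd3b5 and Slco1a1, and LF+CR lies with HF.

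The order of the 6 groups differed between the genes with the largest rises. Mean intensities of Hsd3b5 were 3271 ± 819 (SD, n = 3 here and below) in HF+CR, 1553 ± 809 in LF+Ex, 1021 ± 855 in LF, 106 ± 46.8 in HF+Ex, 72.9 ± 4.72 in LF+CR and 72.9 ± 2.58 in HF. Those of Slco1a1 were 2450 ± 54.2 in HF+CR, 2345 ± 271 in LF+Ex, 1523 ± 507 in LF, 331 ± 237 in HF+Ex, 110 ± 7.46 in HF and 101 ± 17.1 in LF+CR. The HF+CR and LF+Ex means of Slco1a1 differed by less than the SD of LF+Ex, and LF+CR and HF were at or near background for both genes. Elovl3 was highest in LF+Ex, at 3832 ± 790 against 2889 ± 1043 in HF+CR, and Mup10 was at 1451 ± 139 in HF+CR and 1201 ± 421 in HF+Ex, in both cases a gap within the larger SD. For Cyp7b1, LF+CR had the lowest mean of the 6 groups, 902 ± 137 against 1963 ± 344 in HF.

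Female-biased genes went the other way. Of 20 tested, 7 fell in HF+CR and none rose, against 3.31% and 5.62% of all genes. The median log2 fold change was -0.64, and 12 lay fully lower in HF+CR, against 10.2% of all genes. Slc22a27, an organic anion transporter gene of female liver, read 783, 1101 and 754 in LF+CR and 95.9, 121 and 98.0 in HF+CR. It was bright in every LF+CR liver and close to background in every HF+CR liver (log2 fold change -2.87, SE 0.27, adjusted p = 1.61e-05). Cyp2b13, a female-specific cytochrome P450, was at 754, 270 and 907 in LF+CR and not above background in HF+CR, at least 6.00-fold lower there. Cyp2b9, its close relative, read 3055, 1607 and 2785 in LF+CR and 849, 583 and 753 in HF+CR (log2 fold change -1.71, SE 0.27, adjusted p = 0.00106); probe sets of this family can share sequence. Acot3, a peroxisomal acyl-CoA thioesterase, fell by 2.44 on the log2 scale, from 1353, 821 and 2002 to 192, 365 and 168, and Fmo2, a flavin monooxygenase, by 1.73. The 13 members that did not pass ranged from -1.24 (Cyp17a1, adjusted p = 0.067) to 0.45 (Ctse). With array weights 11 of the 20 fell, where 749 of all 14201 genes fell.

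The promoters of these genes were read from RefSeq (GRCm38.p6) because the members move together; each window is the 250 bases before the annotated start. The palindrome TTCNNNGAA, the letters that STAT5 is known to bind, was searched on both strands. It was present in 4 of the 18 tested male-biased genes with a promoter in the table, in 3 of 15 female-biased genes and in 8.13% of 27025 genes with a promoter. Among the members that differed it was in 2 of 14 male-biased (C8a and Keg1) and 1 of 6 female-biased genes. C8a carries a match (in capitals), which begins 228 bases before the start, and the genes with the largest differences, Hsd3b5 and Slco1a1, hold none in this window. They are shown so that the starts of a matching and of non-matching members can be compared, at chr4:104876399-104876648, chr3:98645535-98645784 and chr6:141946963-141947212, all on the minus strand and written 5′ to 3′.
C8a: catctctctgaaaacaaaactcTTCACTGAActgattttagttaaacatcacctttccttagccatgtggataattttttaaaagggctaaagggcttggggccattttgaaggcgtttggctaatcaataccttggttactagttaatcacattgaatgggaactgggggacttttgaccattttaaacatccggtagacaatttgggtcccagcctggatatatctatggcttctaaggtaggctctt
Hsd3b5: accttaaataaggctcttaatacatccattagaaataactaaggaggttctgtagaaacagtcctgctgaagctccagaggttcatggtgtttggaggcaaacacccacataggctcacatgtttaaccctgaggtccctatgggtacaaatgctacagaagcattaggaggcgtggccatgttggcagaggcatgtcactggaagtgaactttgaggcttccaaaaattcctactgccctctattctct
Slco1a1: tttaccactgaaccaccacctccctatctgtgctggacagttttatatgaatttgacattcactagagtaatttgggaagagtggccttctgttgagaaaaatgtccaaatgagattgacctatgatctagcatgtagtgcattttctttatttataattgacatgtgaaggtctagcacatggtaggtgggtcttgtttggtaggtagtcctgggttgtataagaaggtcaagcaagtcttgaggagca

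Of 17 tested genes of growth hormone, IGF1 and leptin signalling, Ghr and Egfr rose and Socs2 and Lepr fell. Over all genes 5.62% rose and 3.31% fell. The other 13 of the 17 did not pass. Ghr, the growth hormone receptor, was at 3315, 2577 and 3430 in LF+CR and at 4878, 4623 and 4636 in HF+CR (log2 fold change 0.61, SE 0.09, adjusted p = 0.000664). Igf1, the main hepatic product of growth hormone action, read 4022, 3241 and 3956 against 4645, 4214 and 4679. The values did not overlap, but the difference missed the threshold (log2 fold change 0.28, SE 0.09, adjusted p = 0.0649). Lepr, the leptin receptor, was at 456, 90.3 and 398 in LF+CR on its brightest probe set. On that probe set it was below background in all 3 HF+CR livers, at least 2.68-fold lower there. LF+CR 2 was itself under its dim threshold, and without LF+CR 1 the call was lost (adjusted p = 0.053). The other bright probe sets of Lepr fell by 1.56 and 0.42. The latter went from a mean of 167 in LF+CR to 116 in HF+CR, above the dim thresholds in both groups. Socs2, a feedback inhibitor induced by growth hormone, read 623, 425 and 381 in LF+CR and 152, 133 and 352 in HF+CR (log2 fold change -1.20, adjusted p = 0.0472). It passed only narrowly: the adjusted p was 0.162, 0.0877 and 0.0516 without LF+CR 1, 2 and 3, and 0.153 and 0.172 without HF+CR 1 and 2, and the log2 fold change was -0.48 with the mean of its probe sets. Stat5b (0.23, adjusted p = 0.23), Stat5a (0.25, 0.067) and Cish (-0.74, 0.46) did not pass.

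Under restriction most genes of fatty acid synthesis had lower mRNA levels on the high-fat diet. Of 17 genes of this pathway tested, 11 fell in HF+CR and 1 rose, where 3.31% of all genes fell and 5.62% rose. The median log2 fold change was -0.81. Fasn, fatty acid synthase, read 5104, 3541 and 3195 in LF+CR and 1664, 1805 and 1823 in HF+CR (log2 fold change -1.13, SE 0.19, adjusted p = 0.00175). Acaca, the cytosolic acetyl-CoA carboxylase that commits carbon to the pathway, was at 2110, 1302 and 1492 and at 527, 642 and 574 (log2 fold change -1.44, SE 0.21). Elovl6, which lengthens palmitate to stearate, fell the furthest, from 3464, 1896 and 1901 to 522, 709 and 460 (log2 fold change -2.03, SE 0.26, adjusted p = 0.000254). LF+CR 1 was the highest array for all 3 genes, and no LF+CR value reached down to an HF+CR value. Me1, the malic enzyme that yields NADPH, was at 5615, 4610 and 5148 in LF+CR and at 1691, 2209 and 2356 in HF+CR (log2 fold change -1.30, SE 0.15). Acly, ATP citrate lyase, read 4722, 3668 and 2759 against 1679, 2026 and 1687 (log2 fold change -1.01, SE 0.14). Scd1, the stearoyl-CoA desaturase, was at 15456, 15394 and 15840 and at 8805, 9965 and 9838, near the top of the scale of the array in LF+CR (log2 fold change -0.71); its other bright probe set, with means of 7095 and 2414, differed by -1.55.

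Acacb, the mitochondrial carboxylase, fell by 1.28 on the log2 scale, although its other bright probe set, which was close to background, did not move (0.01). Pgd, of the pentose phosphate pathway, read 1057, 1445 and 720 in LF+CR and 366, 503 and 515 in HF+CR (log2 fold change -1.15); without LF+CR 2 or HF+CR 1 its adjusted p was 0.0623 and 0.0567. Acss2 fell by 1.02, not without LF+CR 1 (adjusted p = 0.0505), and the citrate carrier Slc25a1 by 0.23, not without HF+CR 2 (0.0516). Of the transcription factors, Srebf1 did not differ detectably, with 2266, 1555 and 1794 in LF+CR and 1704, 2214 and 1837 in HF+CR (log2 fold change 0.04, SE 0.20, adjusted p = 0.923), and the groups overlapped. Mlxipl, which encodes the carbohydrate-responsive factor ChREBP, was the member that rose (0.74); it did not pass without LF+CR 2 (adjusted p = 0.0753), HF+CR 2 (0.0595) or HF+CR 3 (0.074). Scd2, Thrsp and Mid1ip1 did not pass.

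**Figure D2:**
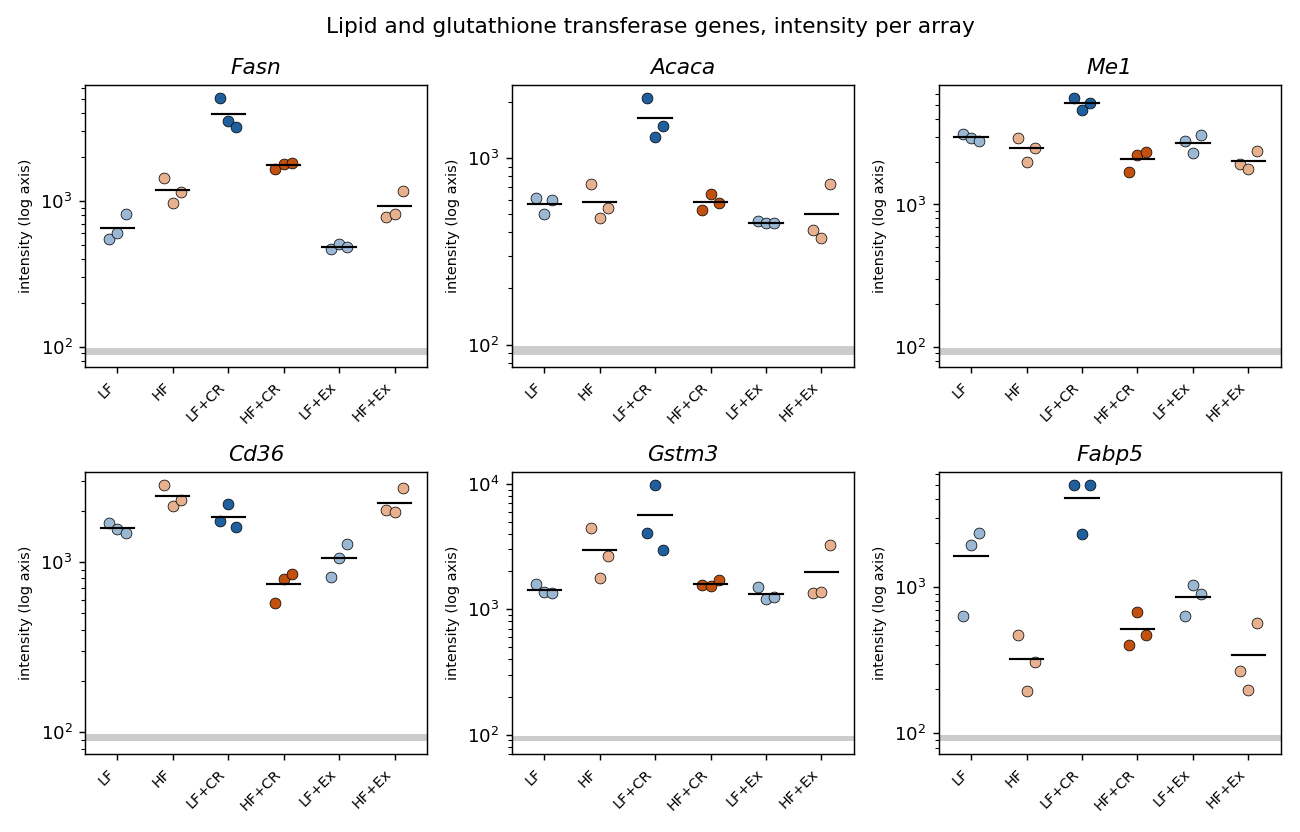
Intensity (log axis) of 6 genes on every array of the 6 groups, drawn as in the plot of sex-biased genes. For Fasn, Acaca, Me1 and Fabp5 the 3 LF+CR livers hold the highest group mean, while Cd36 is lowest in HF+CR (736 ± 143).

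The enzymes Fasn, Acaca, Elovl6 and Acly had their highest mean of the 6 groups in LF+CR. Fasn had a mean intensity of 3947 ± 1017 in LF+CR and 1764 ± 87.1 in HF+CR, above 1180 ± 232 in HF, 924 ± 222 in HF+Ex, 655 ± 138 in LF and 484 ± 18.2 in LF+Ex. Acaca was at 1635 ± 422 in LF+CR and 581 ± 57.6 in HF+CR, and the other 4 groups lay between 451 and 581. Elovl6 was likewise at 2421 ± 904 in LF+CR and 564 ± 129 in HF+CR, with 656 ± 186 in LF and 575 ± 108 in HF. Acly was higher in both restricted groups, at 3716 ± 982 and 1797 ± 198, than in LF (846 ± 44.9) and HF (938 ± 87.9).

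The box CCAAT, which the factor NF-Y is known to bind beside sterol response elements, was searched in the same way. It was found in 10 of 15 tested fatty acid synthesis genes with a promoter in the table and in 8 of the 11 that differed. It was also in all 14 cholesterol synthesis genes with a promoter, of which 2 differed, and in 37.5% of all genes. The starts of Fasn (chr11:120824548-120824797, minus strand) and Pgd (chr4:149166706-149166955, minus strand) are shown because both genes fell and hold more than 1 match. The 3 matches in Fasn begin 90, 62 and 59 bases before the start, and the last 2 lie on opposite strands and share bases. Those in Pgd begin 46 and 9 bases before it.
Fasn: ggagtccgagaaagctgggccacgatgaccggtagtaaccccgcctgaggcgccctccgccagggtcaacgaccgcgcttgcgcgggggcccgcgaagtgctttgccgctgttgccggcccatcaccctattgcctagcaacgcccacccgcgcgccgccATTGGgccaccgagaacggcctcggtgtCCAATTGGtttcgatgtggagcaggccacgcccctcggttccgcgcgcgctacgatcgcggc
Pgd: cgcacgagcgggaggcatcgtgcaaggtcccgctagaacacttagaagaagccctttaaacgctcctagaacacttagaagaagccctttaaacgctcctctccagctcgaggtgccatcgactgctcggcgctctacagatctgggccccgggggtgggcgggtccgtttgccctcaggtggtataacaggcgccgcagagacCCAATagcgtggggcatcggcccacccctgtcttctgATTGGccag

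Glycolytic genes, which feed this pathway, were also lower: 5 of 12 tested genes of glycolysis, fructose and glycogen metabolism fell and none rose (median log2 fold change -0.28), where 3.31% of all genes fell. Pklr, liver pyruvate kinase, read 993, 609 and 660 in LF+CR and 367, 377 and 394 in HF+CR (log2 fold change -0.93, SE 0.19, adjusted p = 0.00723). The glycogen branching enzyme Gbe1 fell by 0.51; it did not pass without HF+CR 1 (adjusted p = 0.0526), with only these 6 arrays fitted or without the arrays with pancreatic transcripts (up to 0.0800), and Tpi1 and Pgk1 fell by 0.37 and 0.34. Among 23 genes of gluconeogenesis, insulin signalling and fasting 2 rose and 1 fell, against 5.62% and 3.31% of all genes. Pck1, which encodes the enzyme that sets the pace of gluconeogenesis, was at 6759, 4680 and 6653 in LF+CR and at 6683, 5669 and 4680 in HF+CR, and the groups overlapped (adjusted p = 0.797). Ppp1r3c, a glycogen targeting subunit, rose by 1.45, and the call was lost without any one of LF+CR 1, LF+CR 2, HF+CR 1, HF+CR 2 and HF+CR 3 (adjusted p of 0.0524 to 0.118).

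Genes of fatty acid uptake and storage were mixed, with 4 of 24 lower and 3 higher (median -0.03), against 3.31% and 5.62% of all genes. Fabp5, a fatty acid binding protein, was at 4981, 2310 and 5054 in LF+CR and at 405, 677 and 475 in HF+CR. It showed the largest fall of any gene with non-overlapping groups (log2 fold change -2.89, SE 0.47, adjusted p = 0.00146), and its other bright probe set fell by 3.05. Cd36, a fatty acid transporter, read 1725, 2175 and 1604 against 575, 788 and 846 (log2 fold change -1.31, SE 0.18, adjusted p = 0.000415), and its other bright probe sets fell by 1.02 and 0.95. Pparg, a nuclear receptor that raises lipid storage genes in fatty liver, was at 298, 405 and 275 in LF+CR and at 136, 204 and 229 in HF+CR (log2 fold change -0.74). It did not pass without LF+CR 2 (adjusted p = 0.0644) or HF+CR 1 (0.058). Cidea, a lipid droplet protein, was not above background in either group, and Plin2 differed by 0.02 (adjusted p = 0.95). Fitm1, which helps to bud lipid droplets, rose by 0.88, from 506, 562 and 557 to 873, 914 and 1296.

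Of 19 genes of mitochondrial oxidation and ketogenesis, 1 fell and none rose, against 3.31% and 5.62% of all genes. This was the coactivator Ppargc1a, lower by 0.64, with an adjusted p of 0.0885, 0.063 and 0.0616 without LF+CR 1, HF+CR 2 and HF+CR 3. Cpt1a, which admits fatty acids to mitochondria, read 2246, 2017 and 2757 in LF+CR and 2722, 2786 and 2686 in HF+CR (log2 fold change 0.23, adjusted p = 0.196). Of 18 peroxisomal and microsomal genes, 4 fell and 2 rose, where 3.31% of all genes fell and 5.62% rose. Acot4 fell by 0.97, and Cyp4a31, Ehhadh and Cyp4a14, targets of the fatty acid receptor PPARalpha, by 0.94, 0.66 and 0.58. The latter calls were lost without LF+CR 2 (adjusted p of 0.065, 0.0972 and 0.129), HF+CR 1 (0.0644, 0.0987 and 0.0766) or HF+CR 3 (0.0538, 0.0646 and 0.0831), and that of Cyp4a14 also without HF+CR 2 (0.0516). Vnn1 and Slc27a2 went the other way. Vnn1 rose by 0.73 and its other bright probe set by 0.64. Its call was lost without LF+CR 2, HF+CR 2 or HF+CR 3 (adjusted p of 0.0559, 0.0578 and 0.0582). Slc27a2 was higher by 0.33 to 0.49 over the alternatives. Among 18 apolipoprotein and VLDL genes 3 fell and 1 rose, against 3.31% and 5.62% of all genes. The gene that rose was Apob, which encodes the core protein of VLDL, from 3068, 2638 and 4075 to 7651, 5236 and 7208 (log2 fold change 1.04, adjusted p = 0.0229). Its other bright probe set differed by only 0.16. Apob was not called under 7 of 20 alternative settings, at an adjusted p of up to 0.129. Apoa4 fell by 1.43 (not without LF+CR 2 or HF+CR 1, adjusted p = 0.0668 and 0.0673), the phospholipid transfer protein Pltp by 1.24 and Tm6sf2, which promotes VLDL lipidation, by 0.63. Tm6sf2 read 932, 881 and 857 in LF+CR and 574, 578 and 550 in HF+CR, and the groups were tight and apart. Cholesterol synthesis stood at 1 higher and 1 lower of 17, against 5.62% and 3.31% of all genes. These were Mvk (0.31) and Pmvk (-0.66). Mvk was lost without any one of LF+CR 1, LF+CR 2 and the HF+CR arrays, at an adjusted p of 0.0631 to 0.149. Sqle, squalene epoxidase, at 1097, 1089 and 1100 against 862, 1253 and 1123, did not differ detectably (adjusted p = 0.959).

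Under restriction mRNA levels of many glutathione transferases, a family of detoxifying enzymes, were lower on the high-fat diet. Of 18 tested 10 fell and none rose, against 3.31% and 5.62% of all genes. The median log2 fold change was -0.51. Gstm3 read 4072, 9870 and 2980 in LF+CR and 1557, 1518 and 1698 in HF+CR (log2 fold change -1.62, SE 0.39, adjusted p = 0.0169), and Gsta2 read 1477, 3223 and 1119 against 876, 777 and 740 (log2 fold change -1.12, SE 0.30, adjusted p = 0.0295). LF+CR 2 was by far the highest array for both, and every LF+CR value still lay above every HF+CR value. Without LF+CR 2 neither passed (adjusted p = 0.0728 for Gstm3 and 0.113 for Gsta2), nor did Gstm3 without HF+CR 2 (0.0535) or Gsta2 without HF+CR 1, 2 or 3 (0.0567, 0.0792 and 0.0858). Gsta4, which clears the lipid peroxidation product 4-hydroxynonenal, fell by 0.90 and Gstm2 by 0.89, and both passed without any single array. Mgst3 fell by 1.17, while its other bright probe set fell by 0.24. The list counted 4 members when only the 6 arrays were fitted and 5 without the arrays with pancreatic transcripts. Probe sets of the Gstm genes can share sequence.

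In the wider list of NRF2 targets and antioxidants 4 of 25 fell and none rose (median -0.21), against 3.31% and 5.62% of all genes. Nqo1, the quinone reductase, was at 287, 617 and 240 in LF+CR and at 120, 147 and 130 in HF+CR (log2 fold change -1.31, SE 0.27, adjusted p = 0.00657), and LF+CR 2 was again the highest array. Cbr1, a carbonyl reductase, read 1752, 2506 and 1637 against 581, 541 and 539 (log2 fold change -1.77, SE 0.20, adjusted p = 5.41e-05). Of 20 xenobiotic P450 and nuclear receptor genes, 5 fell and 2 rose, against 3.31% and 5.62% of all genes. Cyp2c38, a drug-metabolising P450, was at 1690, 1918 and 1701 in LF+CR and at 428, 626 and 417 in HF+CR (log2 fold change -1.84, SE 0.18, adjusted p = 1.99e-05). Cyp3a11, the main drug-metabolising P450 of mouse liver, fell by 0.55 and did not pass without LF+CR 2 (adjusted p = 0.0695), HF+CR 1 (0.069) or HF+CR 3 (0.0503). Cyp1a2, a pericentral P450, rose from 2259, 1786 and 1732 to 4282, 4591 and 4921 (log2 fold change 1.26, SE 0.24, adjusted p = 0.00468). Of 14 pericentral genes 4 rose and none fell, against 5.62% and 3.31% of all genes.

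**Figure D3:**
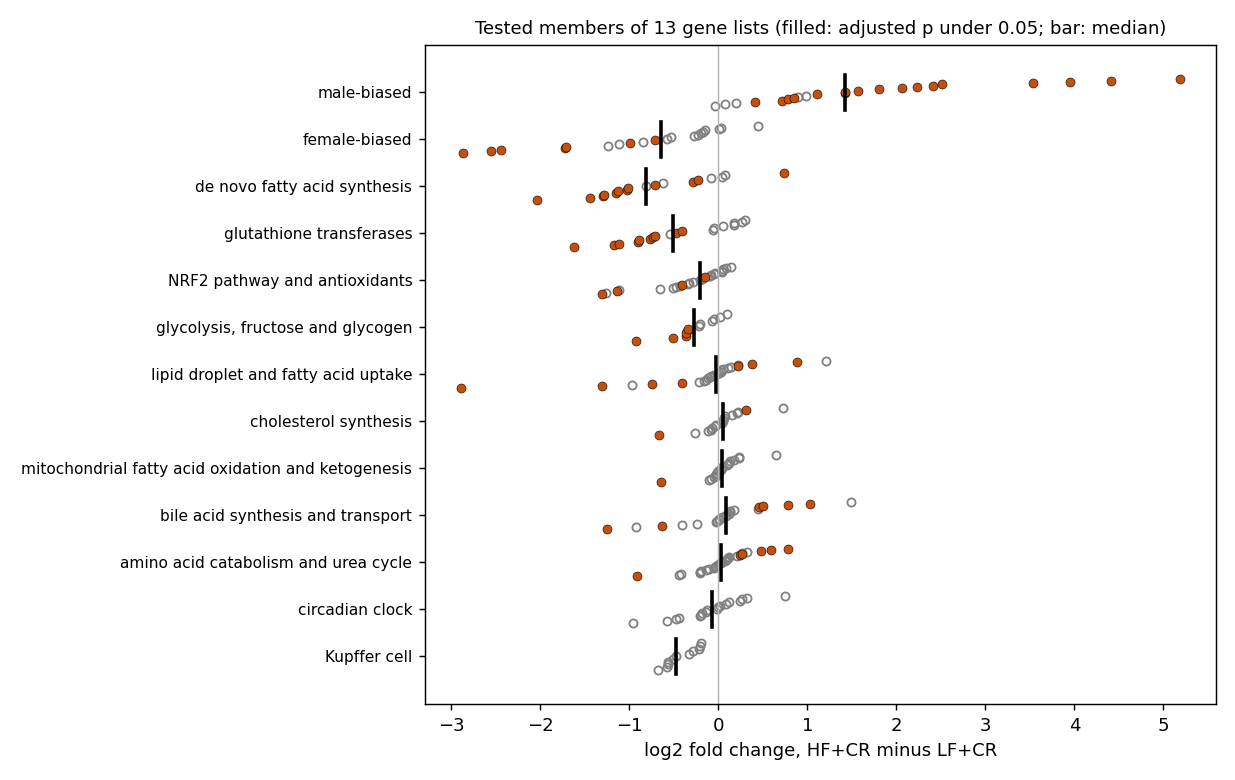
Log2 fold change (HF+CR minus LF+CR) of every tested member of 13 gene lists; each point is a gene, filled where the limma adjusted p was under 0.05, and the black bar is the median of the list. The male-biased list lies to the right (median 1.43), the female-biased, fatty acid synthesis and glutathione transferase lists lie to the left (-0.64, -0.81 and -0.51), and the clock and Kupffer cell lists hold no filled point.

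Of 22 genes of bile acid synthesis and transport, 4 were higher and 2 lower, against 5.62% and 3.31% of all genes. Cyp7a1, the rate-limiting enzyme of the classic route, read 966, 2976 and 1109 in LF+CR and 994, 548 and 836 in HF+CR. The groups overlapped and the difference did not pass (log2 fold change -0.92, SE 0.45, adjusted p = 0.231). Cyp8b1, which makes cholic acid, was at 1045, 1587 and 855 against 2521, 2109 and 2334 (log2 fold change 1.03, adjusted p = 0.0134), and at an adjusted p of 0.0512 without LF+CR 3. Hsd3b7 rose by 0.78, the uptake transporter Slco1b2 by 0.50 (not without LF+CR 2 or HF+CR 3, adjusted p = 0.0634 and 0.0544), and Slco1a4 fell by 1.25. Nr0b2, the bile acid sensor's target SHP, stood at 1.49 without passing (adjusted p = 0.063).

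Among 10 secreted hepatokines 3 rose and none fell, where 5.62% of all genes rose. Enho, which encodes adropin, read 93.4, 146 and 98.7 in LF+CR and 331, 270 and 381 in HF+CR (log2 fold change 1.43, SE 0.16, adjusted p = 4.87e-05). Inhbe, an activin subunit, rose by 1.04, and Serpina12, which encodes vaspin, by 1.85, the latter not without any one of LF+CR 2, LF+CR 3 and the HF+CR arrays (adjusted p of 0.0549 to 0.099). Fgf21, the fasting hormone, was at 108, 317 and 174 against 119, 124 and 183 and overlapped (adjusted p = 0.69). Amino acid catabolism held 5 higher and 1 lower of 28, against 5.62% and 3.31% of all genes. The list was led by Agxt (0.79), which detoxifies glyoxylate, and by Etnppl (-0.92). Agxt did not pass without LF+CR 2 or any one HF+CR array (adjusted p of 0.0567 to 0.108). Bhmt, the betaine homocysteine methyltransferase, rose by 0.80 and was not called without LF+CR 3 (adjusted p = 0.0634) or HF+CR 3 (0.0542). Saa4, a constitutive serum amyloid, rose from 1253, 1109 and 1840 to 3838, 3461 and 3229 (log2 fold change 1.35, adjusted p = 0.0003), whereas the acute phase gene Saa1 overlapped, with 384, 1163 and 1736 against 856, 1603 and 1684. Hamp, which encodes the iron hormone hepcidin, did not differ detectably (-0.07, adjusted p = 0.852).

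Some of the largest differences were in genes outside these lists. Pimreg, a mitotic regulator, was below background in LF+CR and at 591, 892 and 821 in HF+CR, at least 8.15-fold higher. Aqp3, a water and glycerol channel, was likewise dim in LF+CR and at least 4.12-fold higher in HF+CR, although its other bright probe set differed by only 0.21. Ptbp1, a splicing regulator, read 638, 366 and 716 against 4135, 3941 and 4291 on its brightest probe set (log2 fold change 2.87), while its other probe sets differed by 0.06 and 0.03. Rad51b, a recombination gene, fell by 2.49 on one probe set and by 0.02 on the other. The noncoding transcript Hectd2os rose from 138, 62.6 and 128 to 545, 646 and 569 (log2 fold change 2.32, SE 0.25). In 13 of the 66 named genes with another bright probe set, every such set moved less than 25% as far or the other way.

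No call was made in several processes. In limma none of 18 clock genes, 23 proteasome genes, 14 extracellular matrix genes or 6 MHC class II genes passed, against 8.93% of all genes; at an unadjusted p under 0.05 there were 2, 3, 0 and 0. Among the immune and stromal markers, the median over 11 Kupffer cell genes was -0.48 on the log2 scale, without a call (5 lower at an unadjusted p under 0.05), and their summed intensity was 9276 to 15471 in LF+CR and 7862 to 8796 in HF+CR. B cell markers summed to 501 to 1033 in LF+CR and 1560 to 1895 in HF+CR, also without a call (1 at an unadjusted p under 0.05), and Cd79a and Cd79b were dim in both groups. The erythroid sum was 647 to 730 against 1410 to 1548. Of its 3 genes only Alas2, the erythroid heme synthesis enzyme, was called (1.51 higher), and the median log2 fold change over the 3 was 0.01. Pancreatic acinar markers summed to 1349 to 4861 in LF+CR and to 2380 to 3009 in HF+CR. Of 11 tested only Cela1 was called, higher in HF+CR by 1.99, while the median log2 fold change of the list was -0.31. The part of these cells in the results above was not tested.

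The difference between the diets was not the same with and without restriction. In mice fed without limit 127 genes differed between HF and LF (0.894%), and in runners 248 between HF+Ex and LF+Ex (1.75%). A test of the difference of the differences called 816 genes for restricted against unrestricted mice (5.75%), 476 of them with a more positive effect of the high-fat diet under restriction, and 601 for restricted mice against runners (4.23%). Without HF 1 the former count was 386, without LF+CR 2 it was 520 and without LF 3 it was 524. For runners it was 347 without HF+Ex 3 and 373 without LF+Ex 1. Centring the arrays turned the former split from 476 positive and 340 negative to 330 and 400.

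The 3 pairs of groups share no array, so that their log2 fold changes can be set side by side over the 14201 genes, which are not independent replicates. The correlation was 0.75 between unrestricted mice and runners, -0.25 between restricted and unrestricted mice and -0.15 between restricted mice and runners. The opposite sign was, however, no more frequent among the 1268 genes that differed under restriction (55.8%) than among all genes (58.2%). The sex-biased lists had medians of opposite sign. For the 22 male-biased genes the median difference was 1.43 under restriction, -0.53 without it and -0.48 in runners (log2), and the difference between restricted and unrestricted mice passed for 17, always more positive. For the 20 female-biased genes the medians were -0.64, 0.15 and 0.41, and 7 differences passed, all more negative. Over all 14201 genes 476 differences passed as more positive and 340 as more negative. Slco1a1 had a log2 fold change of 4.41 under restriction and of -3.56 without it, a difference of 7.96 (SE 0.53, adjusted p = 1.47e-06). The difference was 8.29 for Hsd3b5, 5.44 for Elovl3, -4.52 for Cyp2b13, -4.51 for Slc22a27 and -4.41 for Cyp2b9. Values of genes dim in a group, such as Hsd3b5 and Cyp2b13, depend on the offset.

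**Figure D4:**
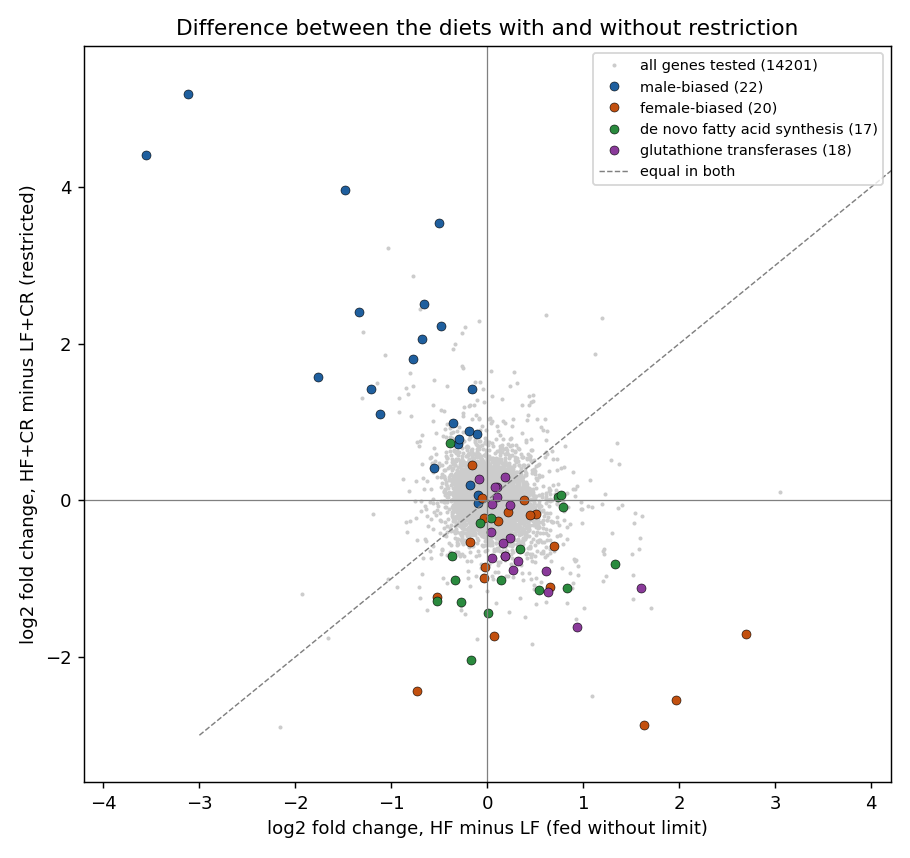
Log2 fold change between the diets under restriction (vertical axis) against that in mice fed without limit (horizontal axis) for the 14201 genes tested, with 4 gene lists in colour and the line of equal differences dashed. Male-biased genes lie in the upper left, up to Hsd3b5 (5.18 and -3.11), and Cyp2b9, Cyp2b13 and Slc22a27 in the lower right.

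Lipid genes differed between the settings in another way. Fatty acid synthesis had a median of 0.03 without restriction against -0.81 with it. Of its 17 differences 6 passed as more negative and 1 as more positive, against 340 and 476 of all 14201 genes. Fasn was 0.83 higher on the high-fat diet in mice fed without limit and 1.13 lower under restriction (difference -1.96, SE 0.27, adjusted p = 0.000547). Glutathione transferases had medians of 0.18 and -0.51, and 11 of 18 differences passed as more negative, against the same 340 of all genes. Cd36 and Pparg also had a more negative effect of the high-fat diet under restriction, with differences of -1.92 and -1.65. Cidea was 3.05 higher on the high-fat diet without restriction, with mean intensities of 973 ± 475 in HF and 95.8 ± 20.001 in LF, and it was dim in both restricted groups (68.2 ± 2.10 and 75.1 ± 10.8). Fabp5, in contrast, had log2 fold changes of -2.17 without restriction and of -2.89 under it, and no difference between the settings was detected (-0.73, SE 0.67, adjusted p = 0.52). On its brightest probe set Lepr was below background in HF (77.5 ± 3.46, against 285 ± 76.6 in LF) as in HF+CR. The sizes of its falls there could therefore not be compared.

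In all 3 comparisons of the diets 31 genes were called, a set chosen after the values were seen. They were 2.44% of the calls under restriction, 24.4% of those without it and 12.5% of those in runners. Under restriction 22 of the 31 differed in the direction opposite to both other settings. They include Hsd3b5, Slco1a1, C8b, Lifr (a cytokine receptor), Cyp2b9, Cyp2b13, Slc22a27, Fasn, Pparg and Gbe1. Over all genes tested the sign under restriction was opposite to that in unrestricted mice for 58.2% and to that in runners for 52.0%. The share opposite to both was not computed. The other 9 kept one direction: Agxt2, Coro1b, Hectd2os, Mccc1, Mettl7a1, Mfsd1 and Tmem14a were higher on the high-fat diet in each setting, and Smim22 and Tm6sf2 were lower. Under restriction Smim22 fell by 1.10 on its brightest probe set and by 0.04 on its other bright one. Agxt2, a mitochondrial aminotransferase, was at 1581, 1696 and 1298 in LF+CR and at 2100, 2070 and 2414 in HF+CR (log2 fold change 0.53 under restriction, 0.73 without it and 0.75 in runners), with an adjusted p of 0.0515 without HF+CR 3. Coro1b and Mccc1 were each lost under restriction without LF+CR 2 or any one HF+CR array, and without LF+CR 1 and LF+CR 3 respectively (adjusted p of 0.0665 to 0.202). Tm6sf2 fell by 0.63, 0.47 and 0.55. The count was 7 without HF 3, 9 without HF 1 and 6 without the arrays with pancreatic transcripts, when all 6 were of opposite direction; it was 14 without LF 1, 16 without LF+Ex 1, 18 without LF 3 and 19 without HF+Ex 3. With only the groups compared in each fit it was 12, and with array weights it was 141, of which 75 had one direction in all 3 comparisons and 64 the opposite direction under restriction, so that the majority turned.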

How the data were processed

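Liver RNA of 18 mice was measured on 18 arrays, and the 6 arrays of the restricted groups are compared here. The authors deposited linear intensities, 1 per probe set, that they had summarised and scaled between arrays (the method is not given in the sources used here). From them log2(intensity + 16) was taken. Of 45037 probe sets without controls, 34945 carried 1 gene symbol; a gene was represented by its brightest probe set (18193 genes) and tested if above the 40th percentile of an array on at least 3 arrays (14201 genes). limma 3.58.1 (R 4.3.3) estimated 1 mean for each group from all 18 arrays, with 12 residual degrees of freedom and 3.64 from the prior (median SE of a log2 fold change 0.0853), and with Benjamini-Hochberg adjustment over all genes and a threshold of 0.05. In the text, adjusted p is limma's. Arrays limit the precision through their number. Replicate numbers do not pair the arrays: deviations of same-numbered arrays correlated at -0.05, -0.08 and -0.30.

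The comparison, the gene lists (38 pathways and 15 cell types, 881 genes, of which 100 had no probe set of their own and 22 were too dim) and the rules were chosen with earlier results of these data known. Named are the 10 largest rises and falls with non-overlapping groups, up to 5 called members of each pathway list with at least 2, the 29 tested genes of a fixed set of 34, and the 5 largest differences of the diet effect in each direction. Other list members, and genes called in all 3 settings, were chosen after their values were seen. A dim group (mean under an array's 40th percentile) is given a bound beside any fitted value: the other group's mean against the mean of the dim group's arrays, each at the higher of its threshold and its own value. Alternatives were other normalizations, offsets of 1 and 64, other filters, the mean of probe sets, other variance models, array weights, fewer arrays, a clock covariate, the replicate block and each array left out. Tested on 20 simulated data sets in which 200 genes changed, this comparison recovered 76.3% of changes of 0.5 and 96.2% of changes of 1 on the log2 scale, with 4.57% false calls. The simulated noise was independent between genes and arrays, with 1 spread per gene. Outlying arrays and arrays with pancreatic transcripts were not simulated, so these rates need not hold for the real arrays.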

Additional observations from a re-analysis of the deposited data

Results flagged for a closer look

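The results below differed in the effect of diet between restricted mice and mice fed without limit, by a test of the difference of the differences in limma. In all, 816 genes passed for restricted against unrestricted mice and 601 for restricted mice against runners.

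More positive under restriction, on the log2 scale, were Hsd3b5 (difference 8.29), Slco1a1 (7.96), Elovl3 (5.44), Pimreg (4.25), Mup10 (4.04), Cyp4a12a (3.75), Ptbp1 (3.64), Cyp7b1 (3.17), Aqp3 (3.14) and Igf1 (0.55); values of genes below background in a group, such as Hsd3b5, Pimreg, Aqp3 and Cyp2b13, depend on the offset. More negative were Cyp2b13 (-4.52), Slc22a27 (-4.51), Cyp2b9 (-4.41), Rad51b (-3.58), Tceal8 (-3.08), Cidea (-2.94), Gstm3 (-2.56), Cyp2c38 (-2.31), Fasn (-1.96), Cd36 (-1.92), Elovl6 (-1.87), Fmo2 (-1.80), Cbr1 (-1.66), Pparg (-1.65), Acly (-1.16) and Cyp3a11 (-0.91). For Ptbp1, Aqp3 and Rad51b the other bright probe sets of the gene did not follow under restriction. Igf1 missed the threshold within the restricted mice (log2 fold change 0.28) and without restriction (-0.27), and the difference of the 2 passed (adjusted p = 0.0185).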

How the results depend on the processing

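The number of genes that differed between HF+CR and LF+CR, 1268, was 2029 with array weights, 440 with only the groups compared in the fit and 639 without the arrays with pancreatic transcripts, and 791 to 1292 with each array left out. For restricted against unrestricted mice the 816 became 1592 with array weights, 287 without the arrays with pancreatic transcripts, 371 without the 3 outlying arrays (LF+CR 2, HF 1 and HF+Ex 3) and 1391 with a clock covariate, and 386 to 1036 with each array left out. For restricted mice against runners the 601 became 1349, 196 and 347 in the first 3 of these settings and 347 to 779 with each array left out. The causes were not tested, and neither was the part of the fewer degrees of freedom that fewer arrays leave. Without LF+CR 3 the 3 counts were 1292, 1036 and 779. With the replicate number as a block the 3 counts were 1077, 612 and 460, and 19 genes in place of 31 were called in all 3 comparisons of the diets; the numbers do not pair the arrays. Of the 134 named genes called, 58 passed in all 20 settings and none reversed. Uncalled genes changed sign: with array weights Sqle (0.067) and Srebf1 (-0.017); without the pancreatic arrays Arntl (-0.012), Hamp (0.0069), Pck1 (0.0098) and Saa1 (-0.10); without the outlying arrays Fgf21 (0.018), Pdk4 (0.034) and Srebf1 (-0.080); with the clock covariate Arntl (-0.080) and Hamp (0.021). With each array left out the log2 fold changes were -0.079 to 0.28 for Arntl, -0.69 to 0.018 for Fgf21, -0.19 to 0.0069 for Hamp, -0.25 to 0.049 for Pck1, -0.62 to 0.034 for Pdk4, -0.10 to 0.96 for Saa1, -0.15 to 0.11 for Sqle and -0.080 to 0.19 for Srebf1. Called members were 12 to 18 of the male-biased and 6 to 11 of the female-biased genes (22 and 20 tested in the main setting). They were 8 to 12 of the fatty acid synthesis and 4 to 12 of the glutathione transferase genes (17 and 18 tested there). Over all genes the calls ran from 440 to 2029 in these settings.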
